A study of Sus scrofa with 11 samples.

Results

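Molecular motors are proteins that use ATP to walk along the cytoskeleton. Kinesins mostly move towards the plus ends of microtubules, cytoplasmic dynein with its activator dynactin moves towards the minus ends, and unconventional myosins move on or tether to actin filaments. In skeletal muscle, motors are known from mouse and cell studies to space the many nuclei of a fibre, to place mitochondria and Golgi elements, and to bring membrane vesicles to the surface. The genes described here are those whose pig Ensembl gene ID carries a symbol beginning with KIF or KLC and a digit, with DYNC, DYNL or DCTN, or with MYO and a digit. Such a symbol was carried by 69 of the 25322 gene IDs counted, and 43 of these reached at least 1 CPM (reads of a gene scaled to the total of its library) in at least 4 of the 11 pigs. These 43 are called motor genes here. They are 17 kinesin heavy chains, 3 kinesin light chains, 6 dynein chains, 4 dynactin subunits and 13 unconventional myosins.

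RNA was sequenced from a back muscle, the longissimus lumborum, of 11 female pigs aged 23 weeks, taken just after slaughter. The 7 pigs called fibre1 had more than 17% type I fibres (slow, oxidative) and less than 70% type IIB fibres (fast, glycolytic) by histology of the same muscle. The 4 pigs called fibre2B had less than 8% type I and more than 70% type IIB fibres. No breed, treatment or genetic change is given in the labels, so the groups differ only by this histology as far as the sources used here say.

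The tissue was muscle by its markers, with summed CPM of the 4 fibre markers that had an ID (DES, ACTA1, NEB and DMD) of 74548 to 161105 in fibre1 and 56377 to 85964 in fibre2B, a sum led by ACTA1. DES, ACTA1 and NEB had positive log2 fold changes that did not pass, and DMD was lower in fibre1 (-0.63 ± 0.18, adjusted p = 0.0495). All 7 tested slow-fibre genes had positive log2 fold changes (fibre1 minus fibre2B), of which 1 was called, the ID listed as MYH6, and 8 of 9 tested fast-fibre genes were also positive, with 0 called by edgeR (3 at an unadjusted p under 0.05). Total counts ran from 14832736 to 36374829 per pig. The 10 most abundant nuclear genes took 45.2% and 44.1% of the counts in fibre1 pigs 5 and 6, and 29.5% to 36.8% in the other pigs. With a bulk sample, more cells or fibres of a type and more RNA per cell cannot be told apart. A gene is called here when its Benjamini-Hochberg adjusted p over all 11329 genes tested was under 0.05 in edgeR's quasi-likelihood test.

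Of the 43 motor genes, 7 rose and 2 fell in fibre1 relative to fibre2B, and 34 did not pass. The 9 called genes are 20.9% of the motor genes, where 9.01% of all genes tested were called, and 11.0% of 10002 genes when all genes were held to the same 1 CPM rule. By direction, 16.3% of the motor genes were called higher beside 4.38% of all genes, and 4.65% were called lower beside 4.63% of all genes. The shares of all genes by direction and for overlap are over all 11329 genes tested, which were not held to the 1 CPM rule. The lower share is 2 genes, of which KIF20B is a member only through the pigs of fibre2B. The median log2 fold change of the 43 genes was 0.11, and that of all genes tested was 0.0073. The groups did not overlap in 9 motor genes, 5 of them with every fibre1 pig above every fibre2B pig (11.6%, beside 3.4% of all genes) and 4 with every fibre1 pig below (9.3%, beside 4.15%). Over both directions that is 20.9% of the motor genes and 7.55% of all genes. KIF20B, a member only through fibre2B, is among the 4 below and counts in both shares of 20.9%. Overlap was judged on TMM-normalised CPM, and by total-count scaling the groups overlapped in MYO1C, DCTN1 and KIF3A.

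The rises were spread over the classes, as 1 kinesin heavy chain (KIF1C), 2 kinesin light chains (KLC1 and KLC2), 1 dynein light chain (DYNLL2), 1 dynactin subunit (DCTN1) and 2 myosins (MYO18B and MYO1C). The falls were MYO6 and the kinesin KIF20B. The median log2 fold change was 0.030 for the kinesin heavy chains, 0.81 for the light chains, -0.30 for the dynein chains, 0.36 for dynactin and 0.034 for the myosins. Summed over a class, kinesin heavy chains came to 374 ± 67.6 CPM in fibre1, against 199.5 ± 29.6 in fibre2B (SD, n = 7 and 4), and unconventional myosins 250.2 ± 57.0 and 137 ± 7.67 CPM. For the dynein chains the sums were 315 ± 64.0 CPM in fibre1 and 271 ± 24.6 CPM in fibre2B, with overlapping pigs. These sums are led by a few abundant genes and were not tested. KIF1C alone averaged 251 CPM in fibre1 and 83.9 CPM in fibre2B, most of the difference in the kinesin heavy chain sums. MYO18B averaged 146 and 51.1 CPM, most of the difference in the myosin sums.

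**Figure D1:**
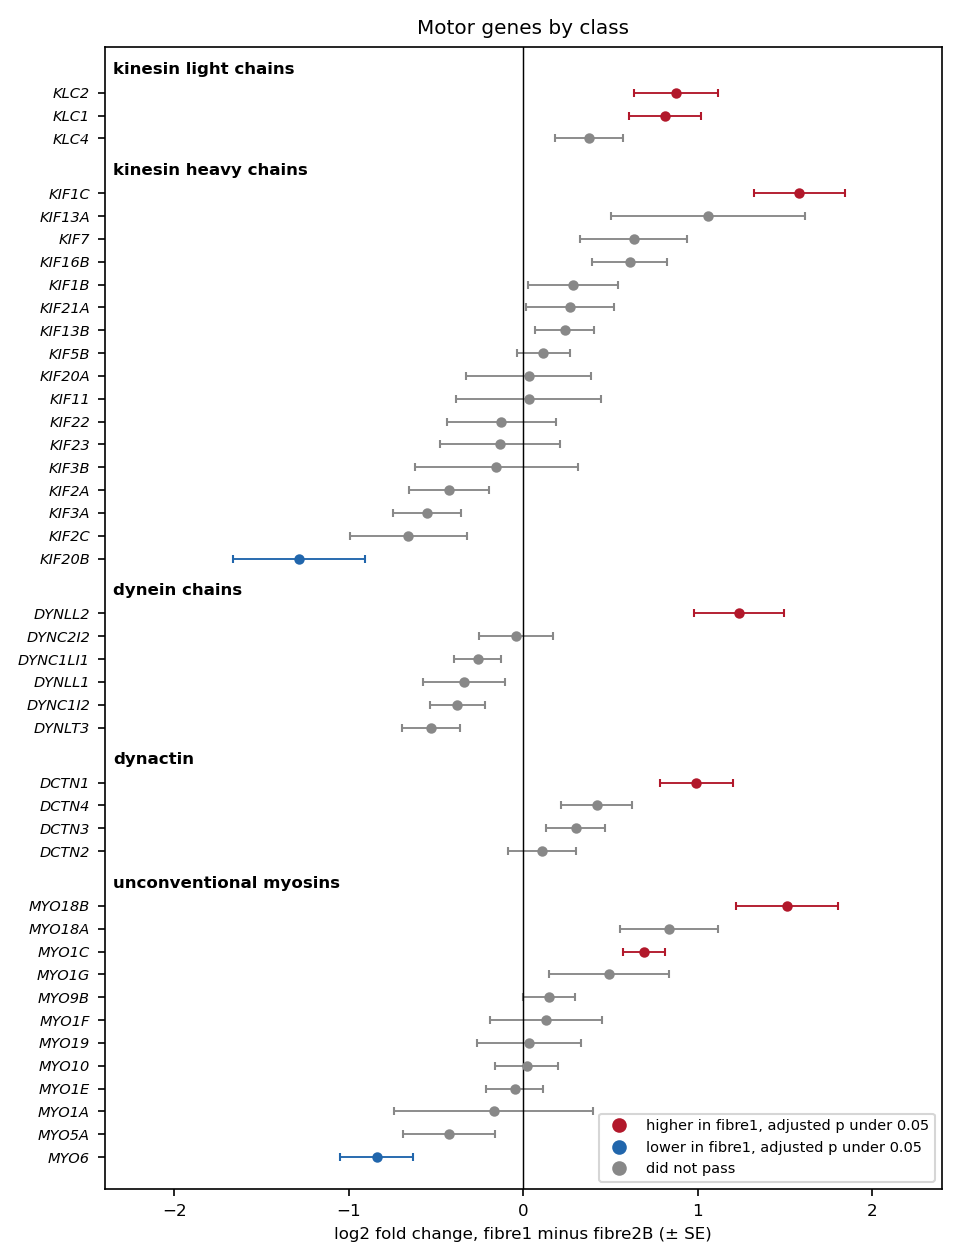
Log2 fold change (fibre1 minus fibre2B) with its standard error for the motor genes, all but 1 of them, grouped by class and coloured by the edgeR call. The 7 genes higher in fibre1 lie in all classes, and the 2 lower ones are KIF20B and MYO6.

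KIF1C was the motor gene with the largest fold. It encodes a fast plus-end directed motor of the kinesin-3 family, known in human cells to carry vesicles and integrins along microtubules. Among fibre1 pigs the gene (ENSSSCG00000017900) had a lowest value of 167 CPM, a median of 247 and a highest of 332, against 107, 109.6, 50.1 and 68.9 CPM in the 4 fibre2B pigs. Every fibre1 pig was above every fibre2B pig; the nearest were fibre1 pig 17 and fibre2B pig 11. The means were 251 ± 64.7 CPM in fibre1 and 83.9 ± 29.2 CPM in fibre2B (SD, n = 7 and 4), a 2.996-fold difference. KIF1C rose by 1.58 on the log2 scale (SE 0.26, adjusted p = 0.0159 in edgeR). Over the 330 splits of the pigs a two-sided exact permutation test on log2 of CPM plus 1 gave p = 0.00303, the smallest it can give. Beside it, the 7 tested slow-fibre genes had a median log2 fold change of 0.95, and their summed level was 10400 to 42102 CPM in fibre1 and 2743 to 10512 CPM in fibre2B. The 9 tested fast-fibre genes had a median of 0.38, with 8 of them positive. Whether KIF1C follows either list was not tested.

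Within fibre1, KIF1C had 332, 302, 247 and 311 CPM in pigs 1, 2, 5 and 6, and 199, 201 and 167 CPM in pigs 7, 12 and 17. This order depends on the TMM scaling. By total counts pig 5 (3903 of 21976494 counts) lay below pigs 7 and 12 (4337 of 18369053 and 7794 of 36374829). The coefficient of variation was 25.7% in fibre1 and 34.8% in fibre2B, beside medians over the 43 motor genes of 26.2% in fibre1 and 20.8% in fibre2B. Left out one at a time, 10 of the 11 pigs left KIF1C called. Without fibre2B pig 14, which had the lowest KIF1C value, the log2 fold change was 1.41 and the adjusted p 0.0574, and without fibre1 pigs 5 and 6 together it was 1.52 and 0.0502.

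Its closest relative among the motor genes, KIF1B, which carries mitochondria and synaptic vesicle precursors in mouse neurons, did not pass. KIF1B had 3.37 to 8.80 CPM in fibre1 with a median of 5.83, and 6.19, 4.07, 4.54 and 4.58 CPM in the fibre2B pigs, so the groups overlapped (log2 fold change 0.28 ± 0.26, adjusted p = 0.493). Within each pig, the log2 ratio of KIF1C to KIF1B was 5.45 ± 0.60 in fibre1 and 4.06 ± 0.53 in fibre2B (SD, n = 7 and 4), with 6 of 7 fibre1 pigs above every fibre2B pig. CPM is not corrected for gene length, so the ratio is of use only between pigs. The third KIF1 gene of the table, KIF1A, a neuronal motor, had 3 counts over all pigs and is no member.

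The other members of the kinesin-3 family, KIF13B (0.24 ± 0.17, adjusted p = 0.367) included, were all positive and none passed. KIF16B, a motor of early endosomes, averaged 7.62 ± 1.51 CPM in fibre1, against 4.98 ± 1.43 in fibre2B (log2 fold change 0.61 ± 0.22, adjusted p = 0.085). KIF13A, which carries recycling endosomes, had 2.09 ± 1.40 and 1.001 ± 0.57 CPM (1.06 ± 0.56, adjusted p = 0.223). KIF16B was called without fibre1 pig 7 (adjusted p = 0.0484) and by DESeq2.

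Conventional kinesin is a tetramer of heavy chains, in muscle chiefly KIF5B, and light chains, which hold the cargo and keep the motor folded when idle. KLC1 had 39.2 to 77.3 CPM in fibre1, with a median of 53.4, and 29.5, 39.9, 24.9 and 33.1 CPM in fibre2B. Only fibre2B pig 11 reached into the fibre1 range, just above fibre1 pig 12. KLC1 rose by a log2 fold change of 0.81 ± 0.20 (adjusted p = 0.0323).

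KLC2 had 11.8 to 26.5 CPM in fibre1, median 17.5, and 6.28, 13.9, 8.68 and 10.6 CPM in fibre2B, a rise of 0.87 ± 0.24 (adjusted p = 0.0409). Here too fibre2B pig 11 was the one that overlapped, lying above fibre1 pig 17. KLC4 averaged 13.3 ± 2.81 CPM in fibre1, against 10.19 ± 2.18 in fibre2B and did not pass (0.38 ± 0.19, adjusted p = 0.214).

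The heavy chain KIF5B had 61.7 to 103 CPM in fibre1, median 80.5, and 68.4, 75.8, 71.1 and 83.6 CPM in fibre2B. All fibre2B values lay inside the fibre1 range (0.11 ± 0.15, adjusted p = 0.645). The log2 ratio of KLC1 to KIF5B within a pig was -0.55 ± 0.29 in fibre1 and -1.25 ± 0.25 in fibre2B, with 6 of 7 fibre1 pigs above every fibre2B pig, and that of KLC2 to KIF5B was -2.18 ± 0.52 and -2.98 ± 0.41, with 5 of 7. The neuronal heavy chains KIF5A and KIF5C had 0 and 11 counts over all pigs.

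The calls of the light chains were less steady than that of KIF1C. KLC1 was not called once any of fibre1 pigs 1, 2, 5 and 6 or fibre2B pigs 10, 14 and 16 was left out (adjusted p 0.0507 to 0.110). For KLC2 the same pigs and fibre1 pig 7 had that effect (0.0506 to 0.125).

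In the dynein class, DYNLL2 stood apart from the other chains in its direction. DYNLL1 and DYNLL2 encode nearly identical LC8 light chains, small dimers that bind dynein and many other proteins, and LC8 is also a light chain of myosin V. DYNLL2 had 83.0 to 225 CPM in fibre1 with a median of 164, against 60.9, 67.4, 59.3 and 72.0 CPM in fibre2B. The groups did not overlap, although fibre1 pigs 7 and 12, at 83.8 and 83.0 CPM, lay close to the fibre2B pigs and the other 5 were at 157 CPM or more. It rose by a log2 fold change of 1.24 ± 0.26 (153 ± 52.5 CPM in fibre1 and 64.9 ± 5.89 CPM in fibre2B, adjusted p = 0.0190).

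DYNLL1 had 53.7 to 150 CPM in fibre1, median 126, and 157, 102, 163 and 145 CPM in fibre2B. Its value of -0.34 ± 0.24 on the log2 scale did not pass (adjusted p = 0.357). Within a pig the log2 ratio of DYNLL2 to DYNLL1 was 0.43 ± 0.57 in fibre1 and -1.11 ± 0.39 in fibre2B, and all 7 fibre1 pigs were above every fibre2B pig. Reads shared by the related coding sequences may have been split between the genes in the authors' counting, which makes both levels uncertain. With fibre2B pig 10 or pig 14 left out DYNLL2 was no longer called (adjusted p = 0.0531 and 0.0757).

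The other 4 dynein chains all had negative log2 fold changes and none passed. DYNLT3, a Tctex-type light chain, had 5.70 to 10.7 CPM in fibre1, median 8.33, and 11.9, 12.4, 13.1 and 11.2 CPM in fibre2B, so every fibre1 pig was below every fibre2B pig (-0.53 ± 0.17, adjusted p = 0.0630). It was called by DESeq2, by limma-voom with quality weights and without fibre1 pig 12 or 17 (lowest adjusted p 0.0419). DYNC1I2, the intermediate chain that joins the dynein heavy chain to dynactin, averaged 28.5 ± 5.61 CPM in fibre1, against 37.1 ± 3.85 in fibre2B (-0.38 ± 0.16, adjusted p = 0.130). The light intermediate chain gene DYNC1LI1, whose product holds cargo adaptors, had 10.21 ± 1.48 and 12.3 ± 0.61 CPM (-0.26 ± 0.14, adjusted p = 0.218). DYNC2I2, of the dynein that works inside cilia, had 3.33 ± 0.75 and 3.42 ± 0.84 CPM (-0.042 ± 0.21, adjusted p = 0.917). The heavy chain DYNC1H1, the ATPase of the complex, was not analysed here because no counted gene ID carried its symbol. Of 19 dynein symbols looked for 8 had an ID, so the median and sums of the dynein chains cover part of the class. A motor gene counted under an ID with no symbol would not be among the motor genes.

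Dynactin makes dynein processive, and DCTN1 encodes p150Glued, the arm that touches both dynein and the microtubule. DCTN1 had 51.2 to 92.6 CPM in fibre1 with a median of 71.6, and 35.997, 46.7, 28.2 and 33.2 CPM in fibre2B. No pig overlapped, the nearest being fibre1 pig 17 and fibre2B pig 11. By total-count scaling these 2 pigs did overlap, with 946 of 19282586 and 1077 of 20262285 counts. It rose by 0.99 ± 0.21 on the log2 scale (adjusted p = 0.0190), with means of 71.7 ± 18.1 CPM in fibre1 and 36.02 ± 7.82 CPM in fibre2B. The call was lost without fibre2B pig 14 (0.0785) or pig 16 (0.0565).

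The other dynactin subunits did not pass. DCTN2 encodes the dynamitin that links the arm to the rest of the complex. It had 72.3 to 140 CPM in fibre1, median 122.5, and 102, 109, 111 and 85.1 CPM in fibre2B (0.11 ± 0.19, adjusted p = 0.738). DCTN3, a small subunit of the same shoulder, had 43.0007 ± 9.73 and 34.9 ± 2.95 CPM (0.30 ± 0.17, adjusted p = 0.262), and DCTN4, of the pointed end, 4.10 ± 0.83 and 3.06 ± 0.62 CPM (0.42 ± 0.20, adjusted p = 0.190). Within a pig the log2 ratio of DCTN1 to DCTN2 was -0.61 ± 0.43 in fibre1 and -1.51 ± 0.33 in fibre2B, with 6 of 7 fibre1 pigs above every fibre2B pig.

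**Figure D2:**
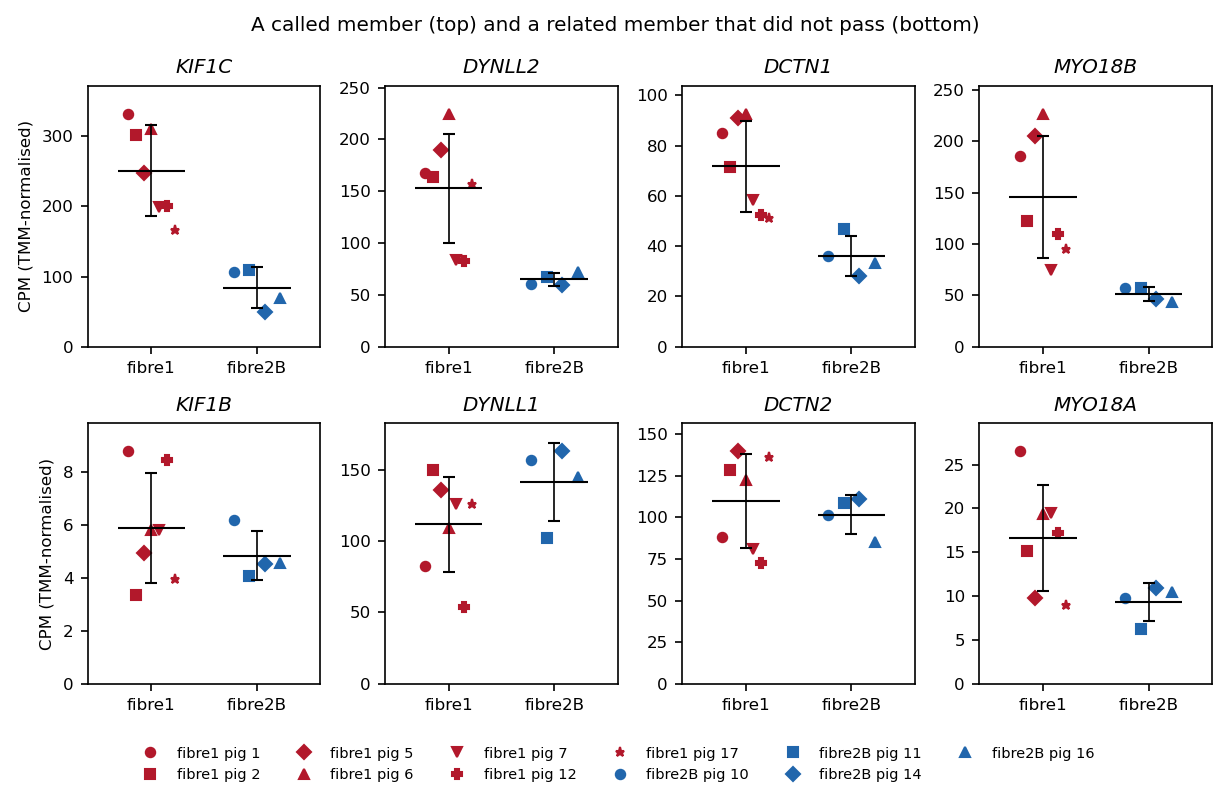
TMM-normalised CPM of 4 called motor genes (top) and of a related motor gene that did not pass (bottom), one point per pig, with the mean and SD as bars. KIF1C, DYNLL2, DCTN1 and MYO18B show no overlap between fibre1 and fibre2B, while KIF1B, DYNLL1, DCTN2 and MYO18A overlap.

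Among the unconventional myosins MYO18B had the largest fold. Its product is a striated-muscle myosin that mouse and zebrafish embryos need to build sarcomeres. It had 74.8 to 227 CPM in fibre1, median 122, against 57.0, 56.9, 46.7 and 43.8 CPM in fibre2B. All fibre1 pigs were above all fibre2B pigs, and pigs 1, 5 and 6 were the highest, at 186, 205 and 227 CPM. The rise was 1.51 ± 0.29 on the log2 scale (146 ± 59.3 CPM in fibre1 and 51.1 ± 6.87 CPM in fibre2B, adjusted p = 0.0166). MYO18B was not called without fibre2B pig 14 (1.48, adjusted p = 0.0639).

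MYO18A, its widely expressed relative, which binds Golgi membrane in human cells, averaged 16.6 ± 6.09 CPM in fibre1, against 9.35 ± 2.16 in fibre2B (0.84 ± 0.28, adjusted p = 0.0736). Fibre1 pigs 5 and 17, at 9.76 and 8.98 CPM, lay among the fibre2B pigs at 9.77, 6.20, 11.0 and 10.5 CPM. It was called by DESeq2 and without fibre1 pig 17 (adjusted p = 0.0376).

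MYO1C had the tightest values of the called genes. This class I myosin links membrane to actin and takes part in the insulin-driven insertion of glucose transporter vesicles in fat cells and muscle. It had 35.9 to 50.4 CPM in fibre1, median 45.5, and 27.8, 26.7, 25.9 and 28.8 CPM in fibre2B, with coefficients of variation of 10.3% and 4.55%. The groups did not overlap and MYO1C rose by 0.69 ± 0.12 (adjusted p = 0.0159). By total-count scaling they did overlap, with 673 of 21976494 counts in fibre1 pig 5 and 552 of 17651527 in fibre2B pig 16. Without fibre2B pig 14 it was not called (0.68, adjusted p = 0.0574).

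None of the other class I myosins passed. MYO1E, found at sites of endocytosis, averaged 6.03 ± 1.03 CPM in fibre1, against 6.25 ± 0.77 in fibre2B (-0.050 ± 0.16, adjusted p = 0.864). MYO1A, MYO1F and MYO1G had adjusted p of 0.867, 0.820 and 0.357.

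MYO6 encodes the myosin that walks towards the minus end of actin, unlike the other myosins, and works in endocytosis. It had 2.54 to 4.98 CPM in fibre1, median 4.11, and 8.12, 5.20, 6.64 and 7.35 CPM in fibre2B. Every fibre1 pig was below every fibre2B pig, with fibre1 pig 17 and fibre2B pig 11 almost touching. MYO6 fell by 0.84 on the log2 scale (SE 0.21, adjusted p = 0.0318). Leaving out any of fibre1 pigs 1, 2 and 5 and fibre2B pigs 10, 14 and 16 ended the call (adjusted p 0.0505 to 0.0851).

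For the remaining myosins the groups overlapped. MYO5A, which carries vesicles along actin, averaged 1.84 ± 0.38 CPM in fibre1, against 2.49 ± 0.89 in fibre2B (-0.43 ± 0.26, adjusted p = 0.302). MYO9B, which also carries a GTPase-activating domain, had 9.47 ± 1.36 and 8.56 ± 1.17 CPM (0.15 ± 0.15, adjusted p = 0.537). The filopodial myosin gene MYO10 had 8.29 ± 1.74 and 8.19 ± 1.32 CPM (0.020 ± 0.18), and MYO19, which sits on mitochondria, had 1.64 ± 0.46 and 1.5996 ± 0.66 CPM (0.034 ± 0.30).

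KIF20B, a kinesin of cell division that acts at the end of cytokinesis, fell in fibre1 but at very low counts, 206 over all pigs. It had 0.17 to 0.87 CPM in fibre1, median 0.65, and 1.05, 1.17, 1.36 and 2.03 CPM in fibre2B, with no overlap (log2 fold change -1.29 ± 0.38, adjusted p = 0.0496). It met the 1 CPM rule in all 4 fibre2B pigs but in 1 fibre1 pig, so its membership rests on the group where it was higher. The call was lost without any pig except fibre1 pigs 7 and 12 (adjusted p 0.0552 to 0.145).

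None of the other dividing-cell kinesins among the motor genes passed. KIF11, which pushes spindle poles apart and only just met the rule (1.01 CPM in the fourth highest pig), averaged 0.90 ± 0.46 CPM in fibre1, against 0.90 ± 0.40 in fibre2B (0.030 ± 0.42, adjusted p = 0.970). KIF4A, nearest outside the rule with 0.74 CPM in the fourth highest pig, was not a member. KIF2C, which takes microtubules apart at centromeres, had 2.49 ± 1.11 and 3.94 ± 1.55 CPM (-0.66 ± 0.34, adjusted p = 0.210), its relative KIF2A 2.68 ± 0.72 and 3.63 ± 0.84 CPM (-0.43 ± 0.23, adjusted p = 0.236), and the chromosome-arm kinesin KIF22 4.003 ± 0.82 and 4.36 ± 2.80 CPM (-0.12 ± 0.31, adjusted p = 0.818). KIF20A and KIF23 had adjusted p of 0.965 and 0.823. The 7 proliferation markers with an ID summed to 3.58 to 8.36 CPM in fibre1 and 6.14 to 8.27 CPM in fibre2B, and of the 4 tested 0 were called or had an unadjusted p under 0.05.

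KIF3A and KIF3B form the motor of heterotrimeric kinesin-2, best known for transport into cilia. KIF3A had 2.14 to 4.27 CPM in fibre1, median 3.37, and 4.40, 4.38, 5.39 and 4.74 CPM in fibre2B. All fibre1 pigs were below all fibre2B pigs, but KIF3A did not pass (-0.55 ± 0.20, adjusted p = 0.0873). By total-count scaling the groups overlapped, with 82 of 18369053 counts in fibre1 pig 7 and 96 of 22145667 in fibre2B pig 10. KIF3B had 2.05 ± 1.47 and 2.30 ± 1.66 CPM, with single pigs far above the others in both groups (-0.16 ± 0.47, adjusted p = 0.850), and its direction turned without fibre2B pig 16 (0.48). KIF7, which acts in Hedgehog signalling at the tip of cilia, met the rule through 4 fibre1 pigs and 0 fibre2B pigs and had 0.97 ± 0.26 and 0.62 ± 0.16 CPM (0.63 ± 0.31, adjusted p = 0.192). KIF21A, which limits microtubule growth, had 2.37 ± 0.68 and 1.97 ± 0.37 CPM (0.27 ± 0.25, adjusted p = 0.506).

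**Figure D3:**
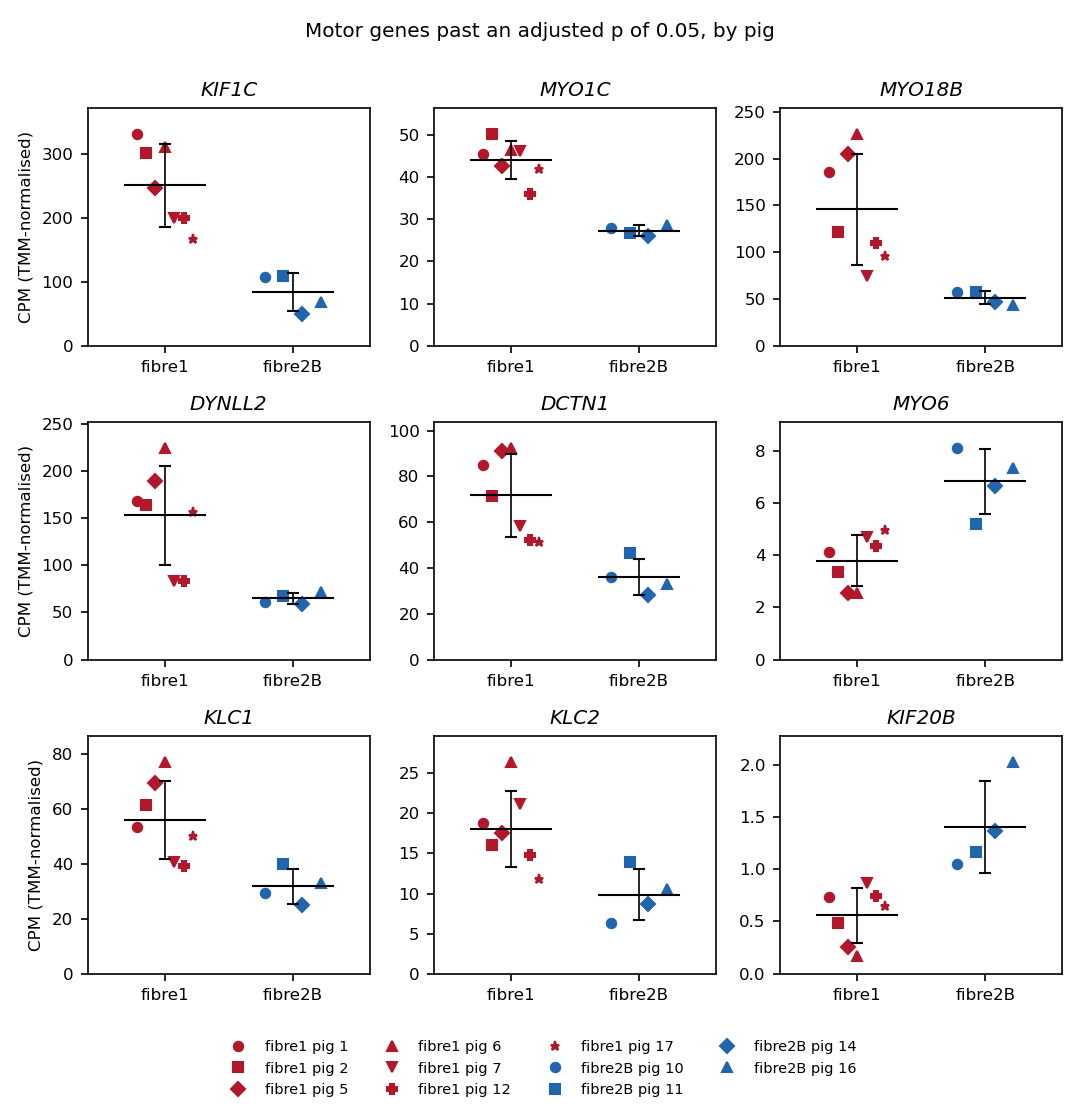
TMM-normalised CPM of the 9 called motor genes in each pig, with the mean and SD as bars; symbols mark pigs. On this scale fibre1 pig 6 is the highest pig in 5 of the 7 genes that were higher in fibre1, and MYO6 and KIF20B are lowest in fibre1 pigs 5 and 6.

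The 7 rising genes did not rise evenly among the fibre1 pigs. By TMM-normalised CPM pig 6 was the highest of fibre1 in 5 of the 7 genes, and pigs 12 and 17 were the lowest in 3 each. These ranks depend on the scaling. By total counts DCTN1 was higher in pig 1 than in pig 6 (1738 of 19890123 and 1603 of 22231909 counts). So was MYO18B (3799 and 3924 of the same totals). KLC1 was slightly higher in pig 2 than in pig 6 (1388 of 23011686 and 1338 of 22231909 counts). KLC2 was likewise higher in pig 7 than in pig 6 (462 of 18369053 and 458 of 22231909 counts). Of the 5 genes only DYNLL2 remained highest in pig 6. Among fibre2B pigs, pig 14 was the lowest in 5 of the 7 and pig 11 the highest in 4 by TMM-normalised CPM. By total counts MYO1C, DYNLL2 and KLC1 were lowest in fibre2B pig 10 instead (607, 1327 and 643 of 22145667 counts). Fibre2B pig 14 had 457, 1045 and 439 of 14832736 counts for these genes. Pigs 5 and 6, where the 10 most abundant genes took the largest shares, also had the smallest TMM factors (0.718 and 0.779, against 0.959 to 1.19 in the other pigs). With the share as a covariate 6 motor genes remained called beside 4.06% of all genes, KIF1C, MYO1C, MYO18B, DYNLL2, DCTN1 and MYO6, with log2 fold changes of 1.54, 0.69, 1.33, 1.07, 0.88 and -0.67. KLC1, KLC2 and KIF20B were not called there, with log2 fold changes of 0.64, 0.78 and -0.99 (adjusted p = 0.0514, 0.0768 and 0.0600).

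Every call of a motor gene by edgeR was lost without fibre2B pig 14, and every one without fibre1 pigs 5 and 6 together. Without fibre2B pig 14 edgeR called 0 motor genes (13 at an unadjusted p under 0.05) and 0 genes in all (2436 at an unadjusted p under 0.05), while DESeq2 and limma-voom with quality weights called 9 each there, beside 6.68% and 9.49% of all genes; these settings were chosen after seeing the data. Without fibre1 pigs 5 and 6 together edgeR called 0 motor genes (16 at an unadjusted p under 0.05) and 0.249% of all genes, 28 of 11243 (2438 at an unadjusted p under 0.05). With total counts as the only scaling, 3 motor genes were called (KIF1C, MYO18B and DYNLL2) beside 1.39% of all genes, and the median of all genes moved to -0.19. By DESeq2 12 motor genes were called beside 15.1% of all genes, the 9 above with DYNLT3, MYO18A and KIF16B.

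The isoform table was read for the same genes. By matching counts, 41 of the 43 genes had a single isoform with counts, so their isoform values repeat the gene values, and 2 had a pair. Of 44 isoforms tested 7 were called, 6 higher and 1 lower in fibre1, beside 5.39% of 12212 isoforms. KIF16B had 2 isoforms whose shares were all or nothing in most pigs. The isoform ENSSSCT00000007751 held 100% of the KIF16B counts in fibre1 pigs 7 and 17 and 0% in fibre1 pigs 5 and 6, with 25.4%, 23.8% and 70.7% in pigs 1, 2 and 12, and in fibre2B it held 100% in pigs 11 and 14 and 0% in pigs 10 and 16. The shares did not pass the test between the groups (diffSpliceDGE unadjusted p = 0.929, where 1.23% of 489 genes with at least 2 tested isoforms were called). DCTN2 had a second isoform with counts in fibre2B pig 10 only, at 1.49% of the gene.

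Genes that work with the motors were listed as well. Of 46 listed adaptors and regulators 23 were tested, 1 was higher in fibre1, 0 were lower and 22 did not pass, with a median log2 fold change of 0.032. The called gene was PLEKHM2, whose product (also named SKIP) joins lysosomes to conventional kinesin through its light chains. PLEKHM2 had 116 to 327 CPM in fibre1, median 204, and 88.0, 110.1, 62.9 and 62.8 CPM in fibre2B, with no overlap (1.35 ± 0.25, adjusted p = 0.0159). Without fibre2B pig 14 it was not called (0.0639).

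Of the known partners of KIF1C, PTPN21 is a phosphatase that binds and activates it in human cells. PTPN21 had 1.30 to 4.59 CPM in fibre1, median 2.31, and 0.96, 1.56, 1.08 and 1.20 CPM in fibre2B. It did not pass (1.18 ± 0.36, adjusted p = 0.0579), and passed by DESeq2 and with the share of abundant genes as a covariate (0.0436). RAB6A, a Golgi GTPase that binds KIF1C, had 60.4 ± 7.25 and 65.9 ± 6.17 CPM (-0.13 ± 0.13, adjusted p = 0.526). PAFAH1B1 (LIS1), a dynein regulator, had 49.8 ± 8.33 and 48.7 ± 1.604 CPM (0.032 ± 0.14).

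Of 51 listed tubulins, microtubule-associated and plus-end proteins 28 were tested, 2 were higher in fibre1, 1 was lower and 25 did not pass, with a median log2 fold change of 0.13. MAP7D1, of a family that recruits conventional kinesin to microtubules, had 151 to 205 CPM in fibre1, median 170, and 113, 134, 87.6 and 87.5 CPM in fibre2B, with no overlap (0.71 ± 0.15, adjusted p = 0.0191). MAP4, the main microtubule-associated protein of non-neuronal cells, had 6.98 to 27.4 CPM in fibre1, median 10.8, and 8.53, 5.81, 4.94 and 4.90 CPM in fibre2B (1.19 ± 0.34, adjusted p = 0.0444). CEP290, of the base of cilia, averaged 2.37 ± 0.76 CPM in fibre1, against 5.33 ± 1.61 in fibre2B (-1.16 ± 0.26, adjusted p = 0.0243), with fibre1 pig 7 at 3.63 CPM just above fibre2B pig 11 at 3.60.

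MAP7D1 (adjusted p 0.0588 to 0.0793) and CEP290 (0.0689 to 0.0851) lost their calls without fibre2B pig 14 or 16. MAP4 was not called once any of fibre1 pigs 1, 2, 5 and 6 or any fibre2B pig was left out (0.0546 to 0.135). Over both lists 4 of 51 tested genes were called, or 7.84%, a share near the 9.01% of all genes. With DESeq2 the count was 9, or 17.6%, beside 15.1% of all genes.

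**Figure D4:**
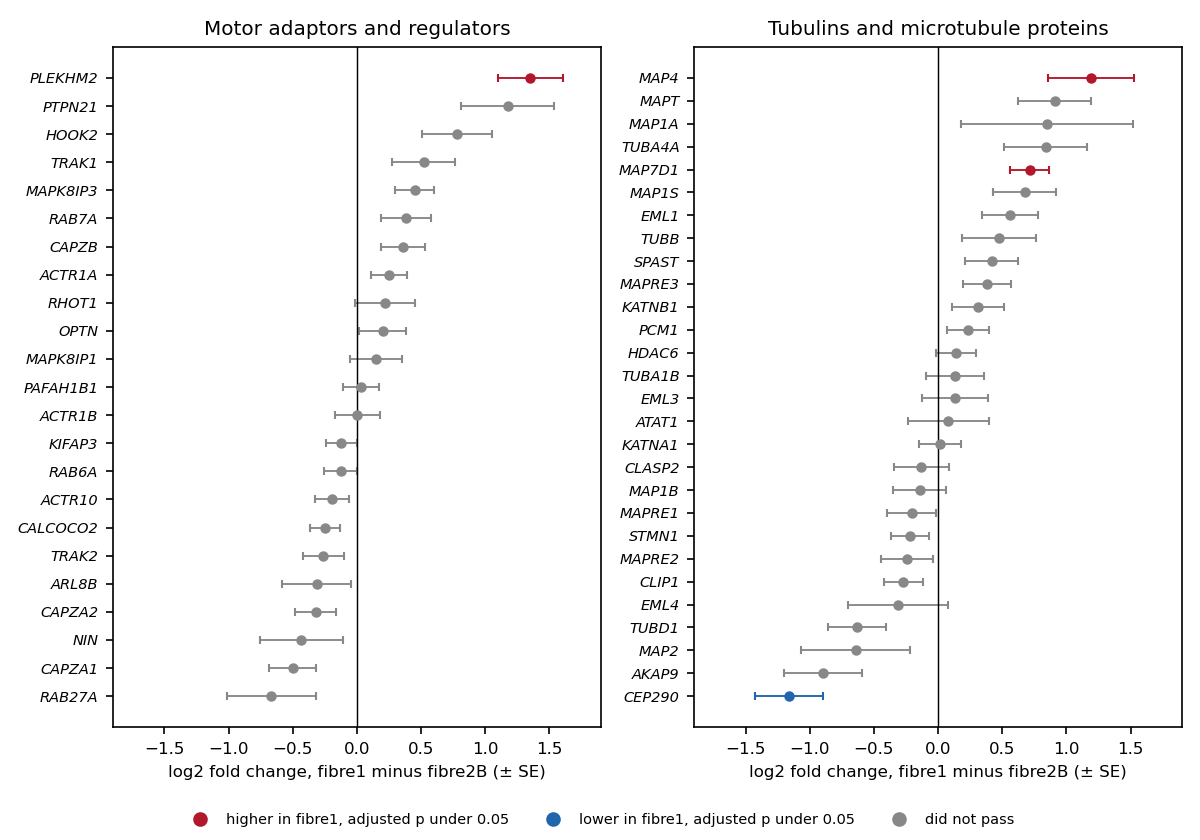
Log2 fold change (fibre1 minus fibre2B) with its standard error for the tested genes of the list of motor adaptors and regulators (left) and of the list of tubulins and microtubule proteins (right). PLEKHM2, MAP4 and MAP7D1 were higher in fibre1 and CEP290 was lower; the others did not pass.

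Markers of other cells moved with the groups in part. Of 6 tested fibroblast markers 2 were lower in fibre1 and 0 higher. All 6 had negative log2 fold changes (median -0.64), with 3 at an unadjusted p under 0.05 in edgeR. The fibroblast sums were 476 to 989 CPM in fibre1 and 749 to 1448 CPM in fibre2B. Of 9 tested smooth muscle and pericyte markers 1 was lower and 0 higher, while 6 of the 9 had positive log2 fold changes (median 0.23). Red-cell markers summed to 137 to 467 CPM in fibre1 and 422 to 953 CPM in fibre2B, and 1 of 2 tested was lower. Of 5 tested satellite cell markers 1 was lower and 0 higher, with 2 positive and 3 negative. Of 5 tested adipocyte markers 1 was lower and 0 higher, while 4 were positive (median log2 fold change 0.27). The adipocyte sums were 1908 to 3737 CPM in fibre1 and 2094 to 2405 CPM in fibre2B. The 6 endothelial, 8 immune and 2 nerve markers tested held 0 called genes by edgeR, with 3, 1 and 0 at an unadjusted p under 0.05. No marker with an ID was at 0 in every pig. The part of these cells in the motor gene results was not tested.

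Some spans of genes overlap in RefSeq's Sscrofa11.1 annotation, a later build than the authors' Sscrofa10.2. Of 41 motor genes with a row there 18 overlap another gene, among them KIF1C with INCA1, KLC1 with XRCC3 and DCTN2 with KIF5A. The labels do not say whether counting used the strand, so reads from such a neighbour could be counted with the motor gene. Counts identical to those of another ID occurred in 0 of the 43 genes.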

How the data were processed

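Per the labels' protocols, muscle was kept in RNAlater and libraries were made from total RNA with a TruSeq kit. The authors deposited expected counts (estimated read counts, not normalized) per gene and per isoform, as whole numbers, 1 column per pig. The submitters' processing notes name CASAVA 1.8.2, FastQC, STAR, RSEM, edgeR, DESeq2 and the build Sscrofa10.2, with no roles. Counts were rounded, which changed 0 values. Of 25322 rows, 11804 had a symbol in the reference list of pig gene names.

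Genes were tested across all 11 pigs with edgeR 4.0.16 in R 4.3.3 (TMM, filterByExpr, quasi-likelihood F test, group term, no covariate), adjusted over 11329 genes. CPM in the text is TMM-normalised, and the 1 CPM rule used total counts. The standard error is the size of the log2 fold change over the square root of F. KIF1C was also tested by exact permutation. Isoforms were joined to genes by runs of rows with matching counts, up to 15 rows and for genes with at least 100 counts. That join is inferred from the values. Alternatives were other scaling, filters, DESeq2 1.42.0, limma 3.58.1 (voom), a covariate and leaving out pigs. The fit was tested on simulated data.

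The motor genes, their classes and the lists were chosen with earlier results of these data known, so they give no independent support. Named genes were KIF1C, KIF1B and KIF5B, every called motor gene, the 2 smallest p in each class without one, those next to the CPM limit, called list genes and tested partners of KIF1C. DYNLT3, MYO18A, KIF16B, KIF13A, KIF13B, DCTN2, DCTN3, DCTN4, DYNLL1, KLC4, MYO1E, MYO1A, MYO1F, MYO1G, KIF20A, KIF23 and PAFAH1B1 were named after their values were seen. Replicates are separate pigs by the labels. Depth was 14832736 to 36374829 counts per pig. One motor gene that did not pass is counted but not reported here.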

Additional observations from a re-analysis of the deposited data

Results flagged for a closer look

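In groups of 4 to 10 pigs, a pig is pointed out when its gap to the nearest other pig is a large part of the group's range (Dixon's criterion at 95%). Of 86 groups of values 3 held such a pig, where chance gives about 4.3. KIF3B had 5.33 CPM in fibre1 pig 1, against 1.01 to 1.86 CPM in the other fibre1 pigs. KIF3B also had 4.79 CPM in fibre2B pig 16, against 1.39 to 1.56 CPM in the other fibre2B pigs. KIF13A had 4.89 CPM in fibre1 pig 1, against 0.31 to 2.21 CPM in the other fibre1 pigs.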

How the results depend on the processing

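With total counts as the only scaling 157 genes and 3 motor genes were called, and KIF5B had -0.11, MYO9B -0.044, MYO19 -0.14, MYO10 -0.18, KIF11 -0.11 and DCTN2 -0.13, against positive values with TMM; with upper-quartile factors MYO19 had -0.0029 and MYO10 -0.014. DESeq2 called 1706 genes and 9 of the adaptor and microtubule list genes, and quality weights 1748 genes, with KIF22 at 0.11 (0.033 with plain limma-voom), MYO19 at -0.18 and MYO10 at -0.047. With the share of abundant genes as a covariate 460 genes were called, and KIF3B had 0.17, DCTN2 -0.047 and MYO1E 0.061. Without fibre1 pigs 5 and 6 together 28 genes and 0 motor genes were called, KIF1C had 1.52 (adjusted p = 0.0502), KIF3B 0.068, DCTN2 -0.0054 and MYO1E 0.045. None of the genes whose sign turned was called in the fit where it turned. The cause of these changes was not tested.

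With each pig left out in turn the counts ran from 0 to 1548 over all genes, 0 to 10 motor genes, 0 to 7 list genes and 0 to 8 motor gene isoforms (7 with all pigs). KIF1C ran from 1.41 to 1.75 (adjusted p 0.0092 to 0.0574), and its permutation difference from 1.38 to 1.75. The exact permutation p was 0.0048 without any fibre1 pig and 0.0083 without any fibre2B pig. These are the smallest values that 210 and 120 splits can give, so their range reflects the number of splits. Ranges that crossed 0 were -0.59 to 0.48 for KIF3B, -0.35 to 0.43 for KIF22, -0.13 to 0.14 for DYNC2I2, -0.11 to 0.35 for MYO19, -0.075 to 0.11 for MYO10, -0.19 to 0.39 for KIF11 and -0.11 to 0.038 for MYO1E. RLE factors changed no call of the named genes. The member rule at 0.5 or 2 CPM gave 9 and 8 called motor genes. No paired analysis was possible because the groups share no replicate number. Depth limits the low genes most, KIF20B with 206 counts over all pigs among them.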
